A study of Homo sapiens with 18 samples.

Results

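Single-interval genes are genes that occur in exactly 1 line of a table of newly made RNA in which most genes are split into several numbered intervals. They were taken by counting, for each Ensembl gene ID, the intervals that carry it. There were 2318 such genes, which is 18.2% of the 12755 gene IDs and 2.35% of the 98665 intervals. The cells were MDA-MB-453, an established human breast cancer line of the luminal, androgen receptor positive kind. Cells were treated with JQ1-VHL or with its vehicle DMSO for 3 hours, and 0.1 mM 4-thiouridine was present for the final 60 minutes (the sample titles call the drug dBET). The 6 groups of 3 libraries each were JQ1-VHL nuclear, DMSO nuclear, JQ1-VHL cytoplasmic, DMSO cytoplasmic, JQ1-VHL total and DMSO total RNA, with the fractions separated by 1 mg/ml digitonin. All 18 libraries were made from polyadenylated RNA. The study compared drug and vehicle in each fraction.

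BET proteins bind acetylated histones and help RNA polymerase II to leave the promoter and elongate. A degrader of the kind its name describes links a BET ligand to a ligand of the VHL ubiquitin ligase, so that BET proteins are marked for destruction. In SLAM-seq, 4-thiouridine built into new RNA reads as a T-to-C change, which separates new from old transcripts. Introns are removed in the nucleus, so intron sequence in polyadenylated RNA is mostly nuclear, while spliced mRNA is exported to the cytoplasm. Short genes with few introns include many immediate early genes, which are switched on within minutes of a stimulus.

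The sequences below belong to genes with large changes or the highest values and come from the RefSeq promoter table (GRCh38.p14). For 4 genes whose RNA moved under JQ1-VHL the 150 bases before the annotated start are shown, with capitals for the CArG box (the binding motif of serum response factor), for TATAA or CCAAT and for CGTCA, each on either strand. The windows are chr5:138465329-138465478 on the plus strand, chr6:26123927-26124076 on the minus strand, chr6:26285535-26285684 on the minus strand and chr1:203305369-203305518 on the plus strand.
EGR1: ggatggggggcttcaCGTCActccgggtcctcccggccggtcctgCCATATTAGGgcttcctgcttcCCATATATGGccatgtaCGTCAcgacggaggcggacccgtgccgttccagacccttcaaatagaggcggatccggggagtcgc
H2BC4: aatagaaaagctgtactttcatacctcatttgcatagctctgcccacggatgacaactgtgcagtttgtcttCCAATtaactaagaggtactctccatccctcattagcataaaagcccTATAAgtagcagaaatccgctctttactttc
H4C8: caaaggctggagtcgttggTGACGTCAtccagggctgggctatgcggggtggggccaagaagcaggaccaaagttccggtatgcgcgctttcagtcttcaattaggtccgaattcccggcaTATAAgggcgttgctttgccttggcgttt
BTG2: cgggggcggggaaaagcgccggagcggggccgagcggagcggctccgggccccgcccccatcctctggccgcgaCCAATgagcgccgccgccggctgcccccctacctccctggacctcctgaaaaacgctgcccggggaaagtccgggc
For TPT1 and RPS16, among the most abundant mRNAs of the cytoplasm, 35 bases around the start are shown, from chr13:45341169-45341203 and chr19:39435935-39435969, both on the minus strand, with the longest run of C and T in capitals.
TPT1: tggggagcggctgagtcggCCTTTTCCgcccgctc
RPS16: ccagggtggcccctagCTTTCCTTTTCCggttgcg

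A CArG box was present in the same 150-base window of 0.769% of 35116 RefSeq promoters, and EGR1 held 2, starting 105 and 83 bases before the start. TATAA was present in 12.1% of promoters, and in H2BC4 and H4C8 it began 31 and 29 bases before the start. CCAAT was present in 23.5% and CGTCA in 15.4% of promoters. The H4C8 window holds the reverse form TGACG overlapping CGTCA. In the 35-base window a C and T run of at least 8 bases, as in TPT1, was present in 16% of promoters and one of at least 12 bases, as in RPS16, in 3.96%. Of the 565 single-interval genes tested below, 262 matched 1 promoter entry. Among these 262 genes a CArG box was found in 1.91%, TATAA in 11.1%, CCAAT in 31.7% and CGTCA in 24.8%. Such matches describe letters in a window and show no binding.

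The deposited intervals carry a number but no coordinates, so they were set beside the merged exons of GENCODE 29 (GRCh38) through the gene ID. Of the 2318 genes, 603 have 1 gap between merged exons in that annotation, and 592 of these 603 carry interval number 1. Of the 643 genes with 1 gap in the whole table, 603 had a single interval. A further 1611 single-interval genes have more gaps than 1, 9 have none, and 95 IDs are not in GENCODE 29. Interval numbers of single-interval genes reached 66, and 1404 were number 1. In 90 of the 1611 genes the number exceeds the count of gaps, so that numbers and gaps do not match throughout, and that an interval is a gap is not given in the sources used here. In the 603 genes with 1 gap, the gap was 8 to 180979 bp long, with a median of 2429 bp. An exon of another gene lies in the gap of 192 of these 603 genes.

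Long noncoding RNAs made up more of the single-interval genes than of other genes. Of the 2318, 1269 are annotated as protein-coding, 447 as antisense RNAs and 309 as lincRNAs, whereas 93.0% of the other genes of the table are protein-coding. Of the 2223 in GENCODE 29, 45.5% overlap a protein-coding gene on either strand, against 34.5% of the others. The strand that was counted is not given in the sources used here, so that reads of an antisense RNA and of the gene it overlaps cannot be told apart. Values of single-interval genes were also low. Their median over the 18 libraries was 3.86 units, where a unit is an ERCC-scaled T-to-C read, against 9.96 units for the other intervals. Intervals of genes with 2 intervals were low too, with a median of 5.24 units. Only intervals with a mean of at least 10 units were tested, which kept 565 single-interval genes (24.4%) and 49.3% of all intervals. Of the intervals of genes with 2 intervals, 32.2% were kept. The last gene inside this limit had a mean of 10.03 units and the first outside it 9.999 units. The 565 comprise 246 genes with 1 gap, 288 with more, 5 with none and 26 not in GENCODE 29, and 330 of them are protein-coding. They are the more abundant members and do not stand for all 2318.

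Single-interval genes held 1.12 to 1.82% of the T-to-C reads of a library, and the libraries held 1584517 to 6773386 such reads, each worth 0.470 to 2.75 units. A read was worth 1.40 to 2.15 units in JQ1-VHL cytoplasm and 0.552 to 2.75 units in DMSO cytoplasm, so that the ERCC scale itself differed between replicates. A few abundant mRNAs made up most of this share in the cytoplasm. The 10 genes of highest mean held 7.62 to 24.3% of the single-interval reads in nuclear libraries and 56.9 to 76.9% in cytoplasmic ones. Without them the share was 1.31 ± 0.407% in JQ1-VHL and 1.32 ± 0.119% in DMSO nuclei (SD, n = 3 in each group here and below). It was 0.365 ± 0.0165% in JQ1-VHL and 0.536 ± 0.0302% in DMSO cytoplasm, and these 2 groups did not overlap. In total RNA it was 0.598 ± 0.0752% with JQ1-VHL and 0.805 ± 0.0710% with DMSO, again with no overlap. With all 2318 genes the cytoplasmic share was 1.36 to 1.505% in JQ1-VHL and 1.23 to 1.76% in DMSO libraries, so these groups overlapped. The total RNA groups overlapped too, at 1.28 to 1.42% with JQ1-VHL and 1.35 to 1.43% with DMSO. A separation was thus seen only after the 10 genes, ranked on these same libraries, were left out. JQ1-VHL nuclear replicate 3 was the shallowest library, with 1584517 reads and 43.1% of the 2318 genes at 0. All 10 luminal marker genes chosen for the line were present in the table with a mean of at least 10 units. Of 10 markers of blood, fibroblasts, endothelium and liver, 8 were not in the table, CD3E, PTPRC, PECAM1 and APOA1 among them, and COL1A1 and ALB were. The summed level of these 2 was 99.8 to 238 units in JQ1-VHL nuclei and 348 to 631 units in DMSO nuclei, and its part in the results was not tested. In these bulk samples fewer cells of a kind and less RNA per cell cannot be told apart.

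**Figure D1:**
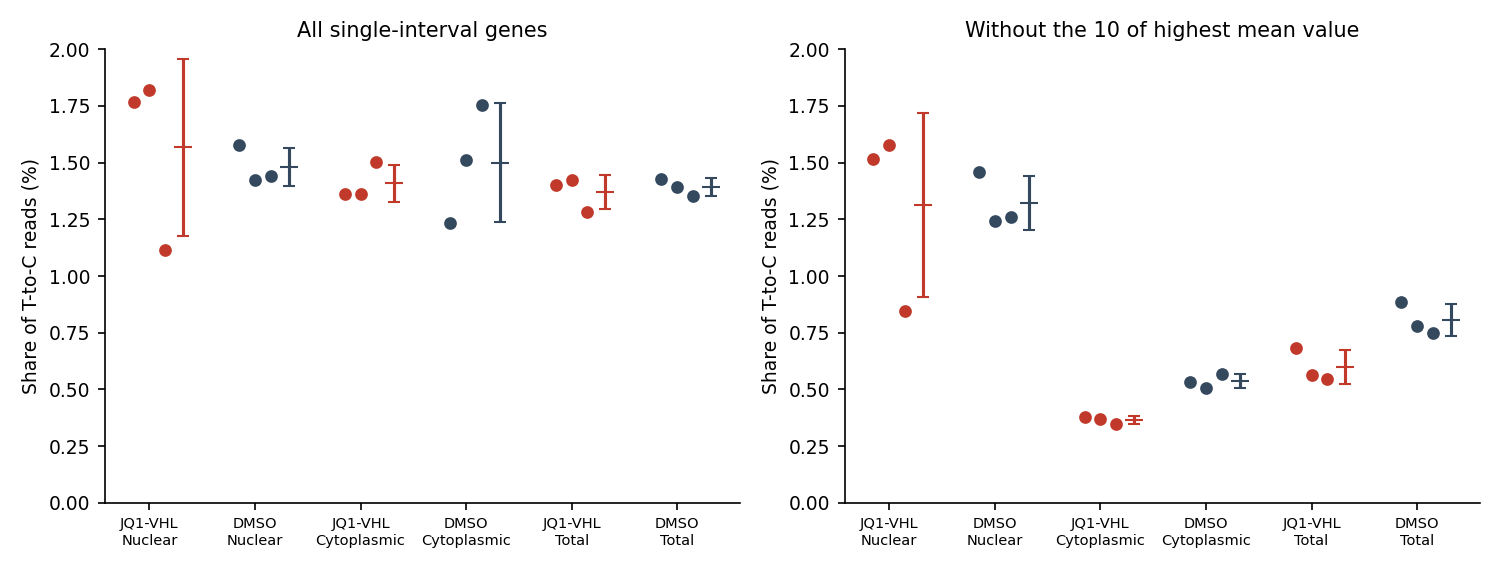
Share of each library's T-to-C reads (%, vertical axis) that fell in single-interval genes, for all 2318 genes (left) and without the 10 of highest mean (right), by group. Points are libraries and bars are mean ± SD of 3. Without the 10 abundant genes the cytoplasmic share was 0.365% with JQ1-VHL and 0.536% with DMSO. With all 2318 genes the cytoplasmic JQ1-VHL and DMSO libraries overlapped.

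In nuclei, the new RNA of many single-interval genes was lower with JQ1-VHL, and that of 3 histone genes was higher. Of the 565 tested, 180 fell and 3 rose (limma on log2(units + 1), Benjamini-Hochberg adjusted p under 0.05 over all 48618 tested intervals). Called genes were 32.4% of these 565, against 22.6% of all tested intervals and 34.4% of the intervals of genes with 2 intervals, and the rises were 0.531%, against 0.0555% and 0.949%. Genes with 2 intervals thus had the higher share on both counts. In gene sums the order to all genes turned, with 25.3% of the 565 called against 33.9% of all genes, and without the filter on low values the shares were 26.6% and 26.7%. The median log2 change was -1.82 for single-interval genes and -1.38 for all tested intervals. The 3 JQ1-VHL libraries all lay below the 3 DMSO libraries for 333 genes (58.9%), against 55.6% of all tested intervals, so that this count was near the background, and above them for 7 genes (1.24%, against 0.138%). When libraries were rescaled by their median ratio over intervals, which sets aside the ERCC scale, 128 genes fell and 49 rose, with a median of -0.73 against -0.24 for all intervals, and 27.7% of all intervals were called, 17.9% lower and 9.77% higher. The count of 183 fell to 15 without JQ1-VHL nuclear replicate 3, to 17 without DMSO nuclear replicate 1 and to 112 without DMSO nuclear replicate 2, with medians of -1.16, -1.42 and -1.97. These counts are 2.65%, 3.01% and 19.8% of the 565, and the share of all intervals fell alike, to 1.58%, 1.65% and 12.3%. Nothing in the labels tells whether the replicates came from different cultures, and the p-values therefore cover the variation among these libraries alone, which may be technical. On the ERCC scale the fit treated the variance as known, so that its p-values carry more certainty than 3 libraries can give.

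Immediate early and feedback genes, which respond to growth factors and stress within minutes, had 7 tested members, and 5 of them fell in nuclei. That is 71.4%, against 31.9% of the 565 genes and 22.6% of all intervals. After rescaling it was 57.1%, against 22.7% and 17.9%. TOB1, an antiproliferative partner of the CCR4-NOT deadenylase, had 22.9, 43.3 and 19.5 units in JQ1-VHL nuclei, against 287, 468 and 529.5 units in DMSO nuclei. Every JQ1-VHL library was far below every DMSO library. The log2 change was -3.90 ± 0.81 (SE; limma adjusted p = 2.87e-04), and -2.64 after rescaling (adjusted p = 0.00177). BTG2, a p53-induced antiproliferative gene of the same family at chr1:203305491-203309602, had 2.13, 7.75 and 1.9 units in JQ1-VHL nuclei, against 64.7, 114 and 129 units in DMSO nuclei. These groups did not overlap either, and the change was -4.53 ± 0.92 (limma adjusted p = 1.87e-04). TOB1 and BTG2 kept their nuclear calls when each of the 6 nuclear libraries was left out. TOB2, a close relative of TOB1, fell by 2.61 on the log2 scale (limma adjusted p = 0.0145), and the immediate early gene IER2 by 2.70 (adjusted p = 0.0297, but 0.149 after rescaling). The call of TOB2 was lost without JQ1-VHL nuclear replicate 3 or DMSO nuclear replicate 1 (adjusted p up to 0.291), and that of IER2 was kept only without JQ1-VHL nuclear replicate 2 (adjusted p up to 0.297). The fifth gene, PPP1R15A, which directs dephosphorylation of eIF2-alpha fell by 2.59 (adjusted p = 0.0415). It was named after its values were seen, and its call was kept only without JQ1-VHL nuclear replicate 2 (adjusted p up to 0.378). SERTAD1, a regulator of CDK4, had a difference of -0.47 ± 0.86 (limma adjusted p = 0.688) and was not called.

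EGR1 moved the other way. This zinc finger immediate early factor at chr5:138465490-138469315, with a single gap of 688 bp at chr5:138466069-138466756, had 306, 305 and 207 units in JQ1-VHL cytoplasm, against 23.1, 3.31 and 110.2 units in DMSO cytoplasm. All 3 JQ1-VHL values were above all 3 DMSO values, and the DMSO values were spread widely. The log2 change was 3.57 ± 0.81 (limma adjusted p = 0.00251) and 3.27 after rescaling (adjusted p = 0.0137). In total RNA EGR1 had 247, 576 and 491 units with JQ1-VHL, against 72.5, 65.2 and 74.5 units with DMSO, again without overlap. The change was 2.53 ± 0.81 (limma adjusted p = 0.0451). In nuclei it had 236, 224 and 52.3 units with JQ1-VHL and 9.01, 121 and 142 units with DMSO, where JQ1-VHL replicate 3 lay below 2 DMSO libraries. That difference of 1.34 ± 0.81 was not called (limma adjusted p = 0.21), but was called after rescaling (2.62, adjusted p = 0.0254). Its cytoplasmic call was lost without DMSO cytoplasmic replicate 2 (adjusted p = 0.0689) and with edgeR and DESeq2 on the recovered reads. The total call was kept only without JQ1-VHL total replicate 1 (adjusted p up to 0.246).

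**Figure D2:**
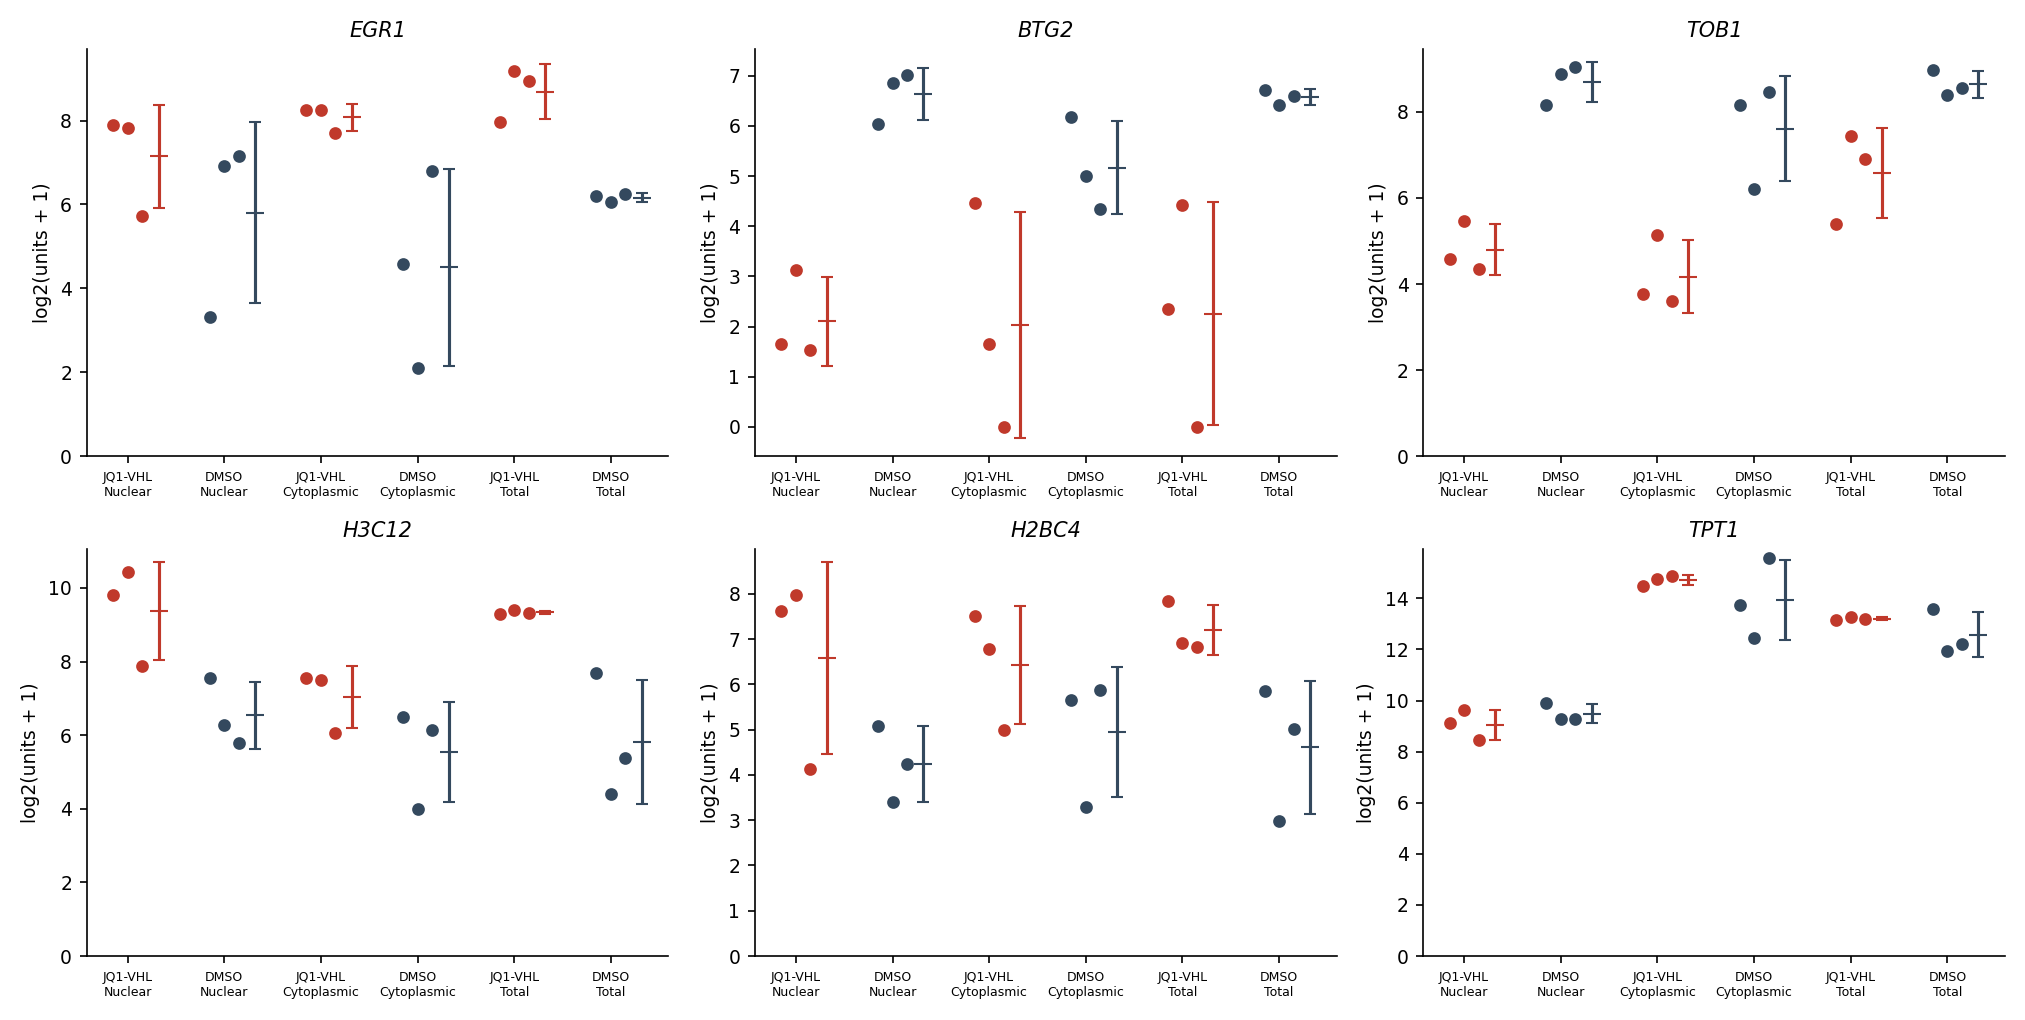
New RNA of 6 single-interval genes as log2(units + 1) (vertical axis) by treatment and fraction, with 3 libraries as points and mean ± SD as bars. BTG2 and TOB1 had lower mean log2 values with JQ1-VHL in every fraction, EGR1, H3C12 and H2BC4 had higher ones, and TPT1 was highest in the cytoplasm. TOB1 in total RNA, EGR1 in nuclei and H3C12 and H2BC4 in the cytoplasm were not called on the ERCC scale.

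Of 5 tested histone genes, 3 rose in nuclei on the ERCC scale and all 5 after rescaling, with a list median of 2.13 and 3.43 on those scales. These are 60.0% and 100% of the list, against 0.531% and 8.67% of the 565 genes and 0.0555% and 9.77% of all intervals. H3C12, a histone H3 gene at chr6:27890382-27893106, had 899, 1391 and 234 units in JQ1-VHL nuclei, against 188, 76.9 and 54.5 units in DMSO nuclei. The groups did not overlap, and the log2 change was 2.83 ± 0.80 (limma adjusted p = 0.00776), kept without each library in turn. An exon of the histone gene H2AC17 lies in its gap of 1950 bp, so its reads may belong to either gene. H4C8, a histone H4 gene, had 395, 516 and 96.0 units in JQ1-VHL nuclei, against 86.8, 47.1 and 55.0 units in DMSO nuclei, also without overlap. Its change was 2.13 ± 0.81 (limma adjusted p = 0.0424), and the call was lost when any nuclear library was left out, with adjusted p of 0.0647 to 0.155. H2BC4, a histone H2B gene, had 196, 251 and 16.6 units in JQ1-VHL nuclei, against 32.8, 9.54 and 17.9 units in DMSO nuclei. The value of JQ1-VHL replicate 3 lay within the DMSO range, so these groups overlapped, and the change was 2.34 ± 0.83 (limma adjusted p = 0.0294), kept only without that library (adjusted p up to 0.17). H2AC6 and H3C4 had differences of 1.28 ± 0.80 and 1.49 ± 0.93 and were not called (limma adjusted p = 0.228 and 0.226), but were after rescaling (2.58 and 2.78). Most replication-dependent histone mRNAs end in a stem-loop and carry no poly(A) tail, so polyadenylated libraries measure part of them only. Histone genes have near-identical copies, between which reads can be split.

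Signalling genes had 5 tested members, of which 3 fell in nuclei. That is 60.0%, against 31.9% of the 565 genes and 22.6% of all intervals. After rescaling it was 60.0% as well, against 22.7% and 17.9%. INHBB, which encodes the inhibin beta B subunit of activin B, had 48.4, 62.6 and 4.28 units in JQ1-VHL nuclei, against 721, 264 and 255 units in DMSO nuclei. All 3 JQ1-VHL values were below the lowest DMSO value, and the change was -3.84 ± 0.83 (limma adjusted p = 5.58e-04), lost without JQ1-VHL nuclear replicate 3 (adjusted p = 0.0928). BAMBI, a pseudoreceptor that dampens TGF-beta signalling, had 4.26, 10.3 and 1.43 units in JQ1-VHL nuclei, against 81.9, 88.7 and 92.6 units in DMSO nuclei. Its groups stood well apart, the change was -4.08 ± 0.89 (limma adjusted p = 5.78e-04), and the call held without each nuclear library. The Wnt receptor gene FZD4, whose gap holds an exon of PRSS23, changed by -3.08 ± 1.05 (limma adjusted p = 0.0238), lost without JQ1-VHL nuclear replicate 2 or 3 or DMSO nuclear replicate 1 or 2 (adjusted p up to 0.216). The receptor genes ADORA2B and S1PR3 had 1.19 ± 1.03 and -1.73 ± 1.05 and were not called, but ADORA2B was called higher after rescaling (2.46).

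DNA-binding factors with homeobox, SOX or bHLH domains had 6 tested members, and 5 fell in nuclei. These are 83.3% of the list, against 31.9% of the 565 genes and 22.6% of all intervals. After rescaling 3 of the 6 fell, against 22.7% of the 565 genes and 17.9% of all intervals. SIX2, a homeobox factor of kidney progenitors, had 11.7, 25.2 and 4.75 units in JQ1-VHL nuclei, against 287, 151 and 122 units in DMSO nuclei, and changed by -3.82 ± 0.81 (limma adjusted p = 3.99e-04). MSX2, a homeobox factor of limb and craniofacial development, had 4.79, 4.52 and 1.43 units in JQ1-VHL nuclei, against 86.8, 48.3 and 49.4 units in DMSO nuclei, and changed by -3.82 ± 0.83 (limma adjusted p = 5.87e-04). Neither pair of groups overlapped, and both calls held without each library. HOXC13, HOXC11 and HES4 fell by 2.53, 2.61 and 2.72 on the log2 scale (limma adjusted p of 0.0282, 0.0342 and 0.0383), and HOXC13 and HES4 were not called after rescaling (adjusted p = 0.0839 and 0.0922). Each of these 3 calls was lost without JQ1-VHL nuclear replicate 3, DMSO nuclear replicate 1 or DMSO nuclear replicate 2, that of HOXC11 also without DMSO nuclear replicate 3 and that of HES4 without JQ1-VHL nuclear replicate 1 (adjusted p up to 0.525). An exon of the noncoding RNA HOTAIR lies in the gap of HOXC11. SOX18 had -0.66 ± 1.05 and was not called.

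Of 14 tested zinc finger genes 6 fell in nuclei, of 10 transmembrane and solute carrier genes 6 fell, of 17 mitochondrial protein genes 7 fell and of 83 antisense and LINC RNAs 26 fell, and none of these 4 lists had a member that rose on the ERCC scale. These are 42.9%, 60.0%, 41.2% and 31.3% of the lists, against 31.9% of the 565 genes and 22.6% of all intervals, so that the antisense and LINC RNAs were called lower at the share of single-interval genes. After rescaling 5, 4, 5 and 18 fell (35.7%, 40.0%, 29.4% and 21.7%, against 22.7% of the 565 and 17.9% of all intervals). On that scale 3 antisense and LINC RNAs rose (3.61%, against 8.67% and 9.77%). Zinc finger genes included ZNF48, which changed by -4.36 ± 1.00 (limma adjusted p = 0.00106), and ZNF865 with -3.20 ± 0.84 (adjusted p = 0.00413). The call of ZNF48 was lost without JQ1-VHL nuclear replicate 3 (adjusted p = 0.0527) and that of ZNF865 without it or DMSO nuclear replicate 1 (adjusted p up to 0.186). Transmembrane genes included TMEM238 with -3.16 ± 0.93 and TMEM60 with -2.81 ± 0.83 (limma adjusted p = 0.00975 and 0.0104). ADGRL1-AS1, antisense to the adhesion receptor gene ADGRL1, had 20.2, 38.7 and 3.33 units in JQ1-VHL nuclei, against 317, 113 and 56.9 units in DMSO nuclei, with a change of -3.06 ± 0.88 (limma adjusted p = 0.00854). The calls of TMEM238, TMEM60 and ADGRL1-AS1 were lost without JQ1-VHL nuclear replicate 3 or DMSO nuclear replicate 1, with adjusted p up to 0.288. The noncoding RNAs LINC01483 and ARRDC1-AS1 had -1.19 ± 0.80 and -1.19 ± 0.80 and were not called. None of the 5 tested ubiquitin, ribosomal protein and translation genes was called in nuclei on the ERCC scale.

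Of the 17 mitochondrial protein genes, 7 fell in nuclear RNA, none in cytoplasmic RNA and 1, NDUFB10, in total RNA. Among the 565 genes 31.9%, 7.79% and 10.3% fell in these fractions, so that counts this small in cytoplasmic and total RNA are near the share of single-interval genes, and the nuclear minus the cytoplasmic change was called for none of the 17 on the ERCC scale. NDUFB10, a subunit of respiratory complex I, had 14.4, 32.3 and 1.43 units in JQ1-VHL nuclei, against 361, 147 and 142 units in DMSO nuclei. The change was -4.20 ± 0.88 (limma adjusted p = 3.51e-04), lost without JQ1-VHL nuclear replicate 3 (adjusted p = 0.0581). NDUFB4, another complex I subunit with a gap of 4303 bp, had 41.5, 53.6 and 5.23 units in JQ1-VHL nuclei, against 386, 229 and 218 units in DMSO nuclei. Its JQ1-VHL values were all below its DMSO values, with a change of -3.47 ± 0.81 (limma adjusted p = 0.00129, and 0.117 without JQ1-VHL nuclear replicate 3). In the cytoplasm NDUFB4 had 394, 428 and 159 units with JQ1-VHL and 219.6, 49.7 and 636 units with DMSO, groups that overlapped fully (0.64 ± 0.81, adjusted p = 0.848). The nuclear minus the cytoplasmic change of NDUFB4 was -4.11 ± 1.14, not called on the ERCC scale (limma adjusted p = 0.104) and called after rescaling (-2.55, adjusted p = 0.0331). UQCR10 of complex III changed by -2.97 ± 0.83 in nuclei (limma adjusted p = 0.00666), lost without JQ1-VHL nuclear replicate 3 or DMSO nuclear replicate 1 (adjusted p up to 0.208). After rescaling 3 of the 17 mitochondrial protein genes fell in the cytoplasm (17.6%) and 5 in total RNA (29.4%). On that scale 124 and 141 of the 565 genes fell in these fractions, and 9.60% and 17.2% of all intervals. The rescaled counts of mitochondrial protein genes are thus near the share of single-interval genes as well.

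The 5 genes with the largest nuclear falls were C17orf58, BTG2, SMIM20, AC046130.1 and CDC42EP5. C17orf58 had 12.8, 14.2 and 2.38 units in JQ1-VHL nuclei, against 339.8, 209 and 229 units in DMSO nuclei, and changed by -4.84 ± 0.84 (limma adjusted p = 7.82e-06). CDC42EP5, an effector of the GTPase CDC42, had 12.2, 3.87 and 0 units in JQ1-VHL nuclei, against 214, 57.8 and 49.8 units in DMSO nuclei (-4.43 ± 0.93, adjusted p = 3.39e-04). Neither pair of groups overlapped, and both calls held without each nuclear library, as did that of AC046130.1, while that of SMIM20 was lost without DMSO nuclear replicate 1 (adjusted p = 0.0621). SMIM20 overlaps SEL1L3, and the gap of AC046130.1 holds an exon of ALG10, which makes the assignment of their reads uncertain. Of the 29 nuclear calls of genes named by rule, 9 held without each of the 6 nuclear libraries.

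In the cytoplasm, 44 single-interval genes fell under JQ1-VHL and 4 rose. Called genes were 8.50% of the 565, against 2.84% of all tested intervals, with 2.71% lower and 0.130% higher. Intervals of genes with 2 intervals were close to them, with 9.02% called, 8.30% lower and 0.712% higher. The median log2 change was -0.55 for single-interval genes, 0.19 for all tested intervals and -0.56 for genes with 2 intervals. Rescaled, 124 fell and 13 rose, with medians of -0.70 and -0.10, and 12% of all intervals were called, 9.60% lower and 2.41% higher. The 3 JQ1-VHL libraries lay below the 3 DMSO libraries for 61 genes (10.8%, against 5.46% of all intervals) and above them for 10 (1.77%, against 2.51%). Without JQ1-VHL cytoplasmic replicate 3 the count of calls was 18, and without DMSO cytoplasmic replicates 1, 2 and 3 it was 12, 99 and 5. These counts are 3.19%, 2.12%, 17.5% and 0.885% of the 565, against 0.893%, 0.759%, 7.43% and 0.327% of all intervals. The median was -0.02 without DMSO replicate 3 and -1.29 without DMSO replicate 2.

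INAFM2 had 10.5, 17.2 and 0 units in JQ1-VHL cytoplasm, against 234, 48.0 and 322 units in DMSO cytoplasm. Its groups did not overlap, and it changed by -4.71 ± 0.87 (limma adjusted p = 8.97e-05), kept without each library. SPNS3, a member of the spinster transporter family, had 0, 4.3 and 0 units with JQ1-VHL, against 54.5, 13.8 and 176 units with DMSO (-4.92 ± 1.05, limma adjusted p = 0.00113, and 0.0687 without DMSO cytoplasmic replicate 3). CCDC71 had no read in JQ1-VHL cytoplasm and 31.4, 7.73 and 41.3 units in DMSO cytoplasm, which is at least 4.75-fold lower against a floor of 3 reads in each library. Its call was also lost without DMSO cytoplasmic replicate 3 (adjusted p = 0.06). INHBB and TOB1 also fell in the cytoplasm, by 4.15 and 3.44 on the log2 scale (limma adjusted p = 4.51e-04 and 0.00377). The JQ1-VHL and DMSO values did not overlap for TOB1 and did for INHBB. The call of INHBB was lost without DMSO cytoplasmic replicate 3 (adjusted p = 0.054) and that of TOB1 without it, DMSO cytoplasmic replicate 1 or JQ1-VHL cytoplasmic replicate 3 (adjusted p up to 0.0585). BTG2 changed by -3.13 ± 0.92 (adjusted p = 0.0302), kept only without JQ1-VHL cytoplasmic replicate 1 (adjusted p up to 0.477), and its groups overlapped. The golgin gene GCC1 and the antisense RNA AC092611.2 completed the 5 largest falls, with -4.37 ± 1.07 and -4.38 ± 0.87. The call of AC092611.2 held without each library, and that of GCC1 was lost without JQ1-VHL cytoplasmic replicate 3 or DMSO cytoplasmic replicate 1 or 3 (limma adjusted p up to 0.105).

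Besides EGR1, the cytoplasmic rises were of AP002884.3, AGXT2 and AC007220.1, all at low values. AGXT2, a mitochondrial aminotransferase, had 37.7, 34.4 and 14.0 units in JQ1-VHL cytoplasm, against 6.6, 1.1 and 0 units in DMSO cytoplasm (3.44 ± 1.01, limma adjusted p = 0.0304). AC007220.1, a lincRNA, had 8.38, 4.3 and 14.0 units with JQ1-VHL and no read with DMSO, which is at least 1.79-fold higher. AP002884.3 overlaps BCO2, IL18, SDHD and TEX12, and was not called after rescaling (adjusted p = 0.0591). All 3 calls were lost without JQ1-VHL cytoplasmic replicate 3 or DMSO cytoplasmic replicate 3, with adjusted p up to 0.252. The call of AP002884.3 was also lost without JQ1-VHL replicate 2 or DMSO replicate 1, that of AGXT2 without JQ1-VHL replicate 1 or 2, and that of AC007220.1 without JQ1-VHL replicate 1 or DMSO replicate 1. In the cytoplasm the 5 tested histone genes had a median of 1.5 and none was called on the ERCC scale. After rescaling 3 rose (60.0%, against 2.30% of the 565 genes and 2.41% of all intervals).

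In total RNA, 58 single-interval genes fell under JQ1-VHL and 7 rose. Called genes were 11.5% of the 565, against 4.34% of all tested intervals (4.24% lower and 0.0967% higher) and 10.8% of the intervals of genes with 2 intervals (9.96% lower and 0.830% higher). With the replicate number as a block 102 (18.1%) were called, 90 lower and 12 higher, against 8.10% of all intervals. The median log2 change was -0.84 against -0.17 for all intervals and -0.97 for genes with 2 intervals, and after rescaling -0.91 against -0.25, with 141 lower, 22 higher and 19.9% of all intervals called (17.2% lower and 2.67% higher). For 156 genes (27.6%, against 19.1% of all intervals) the JQ1-VHL libraries all lay below the DMSO libraries, and for 23 (4.07%, against 1.83%) above them. The count of 65 fell to 19 without JQ1-VHL total replicate 2, to 8 without JQ1-VHL total replicate 3, to 8 without DMSO total replicate 1 and to 40 without DMSO total replicate 3. These counts are 3.36%, 1.42%, 1.42% and 7.08% of the 565, against 1.39%, 0.512%, 0.243% and 2.50% of all intervals. Without DMSO total replicate 1 the median was -0.12.

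H3C12 had 624, 669 and 639.7 units in total RNA with JQ1-VHL, against 203, 20.1 and 40.3 units with DMSO. The JQ1-VHL libraries were close to each other and above all DMSO libraries, and the change was 3.52 ± 0.80 (limma adjusted p = 0.00311), kept without each library. H4C8 and H2BC4 rose by 2.71 and 2.59 on the log2 scale (limma adjusted p = 0.0303 and 0.0452), but each call was lost when any total library was left out, with adjusted p up to 0.129 and 0.282. The same held for C12orf57, which had 493, 404 and 292 units with JQ1-VHL, against 101, 42.0 and 41.1 units with DMSO (2.77 ± 0.81, adjusted p = 0.026, up to 0.113 with a library left out). AC078778.2 and AC100830.1 also rose (3.32 and 3.06), the second with overlapping groups of 71.3 ± 44.5 units with JQ1-VHL and 24.4 ± 39.9 units with DMSO (SD, n = 3 each). Exons of HNRNPA1 and other genes lie in the gap of AC078778.2 and exons of OAZ2 in that of AC100830.1. The call of AC078778.2 was lost when any total library was left out, and that of AC100830.1 was kept only without DMSO total replicate 1, with limma adjusted p up to 0.2 and 0.25.

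Among the falls in total RNA, THAP7, which encodes a zinc-binding chromatin repressor, had 4.12, 1.2 and 0 units with JQ1-VHL, against 195, 32 and 32.7 units with DMSO (-4.75 ± 0.91, limma adjusted p = 2.56e-04). NOP10, a core protein of H/ACA ribonucleoproteins and telomerase, had 4.12, 0 and 0 units with JQ1-VHL, against 90.6, 27.6 and 27.4 units with DMSO (-4.61 ± 0.96, adjusted p = 8.36e-04). INAFM2 had 4.12, 9.63 and 2.4 units with JQ1-VHL, against 324, 97.8 and 88.2 units with DMSO (-4.64 ± 0.87, adjusted p = 1.87e-04). None of these 3 pairs of groups overlapped, and the calls held without each library. AC011451.1, whose gap holds an exon of ZNF699, and AL035425.2, whose gap holds an exon of IRS4, changed by -4.85 ± 0.98 and -4.76 ± 1.10, and the call of AL035425.2 was lost without DMSO total replicate 1 (limma adjusted p = 0.135). BTG2 changed by -4.31 ± 0.92 (adjusted p = 0.00126), lost without JQ1-VHL total replicate 3 (adjusted p = 0.122).

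A total of 21 single-interval genes (3.72%) fell in nuclear, cytoplasmic and total RNA alike, against 0.891% of all tested intervals. The count was 2 without DMSO cytoplasmic replicate 3, 4 without JQ1-VHL nuclear replicate 3, JQ1-VHL total replicate 3 or DMSO total replicate 1, and 6 without JQ1-VHL cytoplasmic replicate 3 or DMSO nuclear replicate 1. It was 7 without DMSO cytoplasmic replicate 1, 12 without JQ1-VHL total replicate 2 and 15 to 31 without each other library, with the other fractions taken from all libraries. The 21 include INHBB, C17orf58, INAFM2, THAP7, BTG2, HOXC11, ZNF48, SPNS3 and AC011451.1. Outside the naming rule, and chosen after their values were seen, they also include DDIT4, a stress-induced inhibitor of mTORC1, and CISH, a feedback inhibitor of cytokine receptors. DDIT4 had 55.9, 69.7 and 79.8 units in JQ1-VHL nuclei, against 325, 828 and 814 units in DMSO nuclei, and 81.7, 144 and 135 units in JQ1-VHL cytoplasm, against 875, 647 and 824 units in DMSO cytoplasm. The groups did not overlap in either fraction, and the nuclear change of -3.14 ± 0.79 (limma adjusted p = 0.00309) was not called after rescaling (-1.85, adjusted p = 0.0784). The nuclear call of DDIT4 held without each nuclear library, while its cytoplasmic call was kept only without DMSO cytoplasmic replicate 2 and its total call only without JQ1-VHL total replicate 2 (limma adjusted p up to 0.155 and 0.342). CISH changed by -3.52 ± 0.94 in nuclei and -4.20 ± 0.94 in the cytoplasm (limma adjusted p = 0.00461 and 0.00206). Its calls were lost without JQ1-VHL replicate 3 in each fraction, DMSO nuclear replicate 1, DMSO cytoplasmic replicate 3 or DMSO total replicate 1 (limma adjusted p up to 0.112).

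The nuclear and the cytoplasmic effect of JQ1-VHL were compared by the difference of their log2 changes. No single-interval gene was called by limma, against 0.0309% of all tested intervals, while 59 of the 565 had an unadjusted p under 0.05. With edgeR and DESeq2 on the recovered reads the count was 0 as well, and it was 2 with the replicate block, 2 after rescaling and 3 with TMM scaling. After rescaling the 2 genes were NDUFB4 (-2.55) and H3C12 (2.97, adjusted p = 0.0116), where 0.527% of all intervals were called, 0.298% lower and 0.228% higher. FASTK had the most negative difference on the ERCC scale, -5.07 ± 1.51 (limma adjusted p = 0.147), and was called with the block. Leaving out DMSO cytoplasmic replicate 1 or 3 gave 3 and 5 calls (0.531% and 0.885%, against 0.537% and 1.09% of all intervals).

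**Figure D3:**
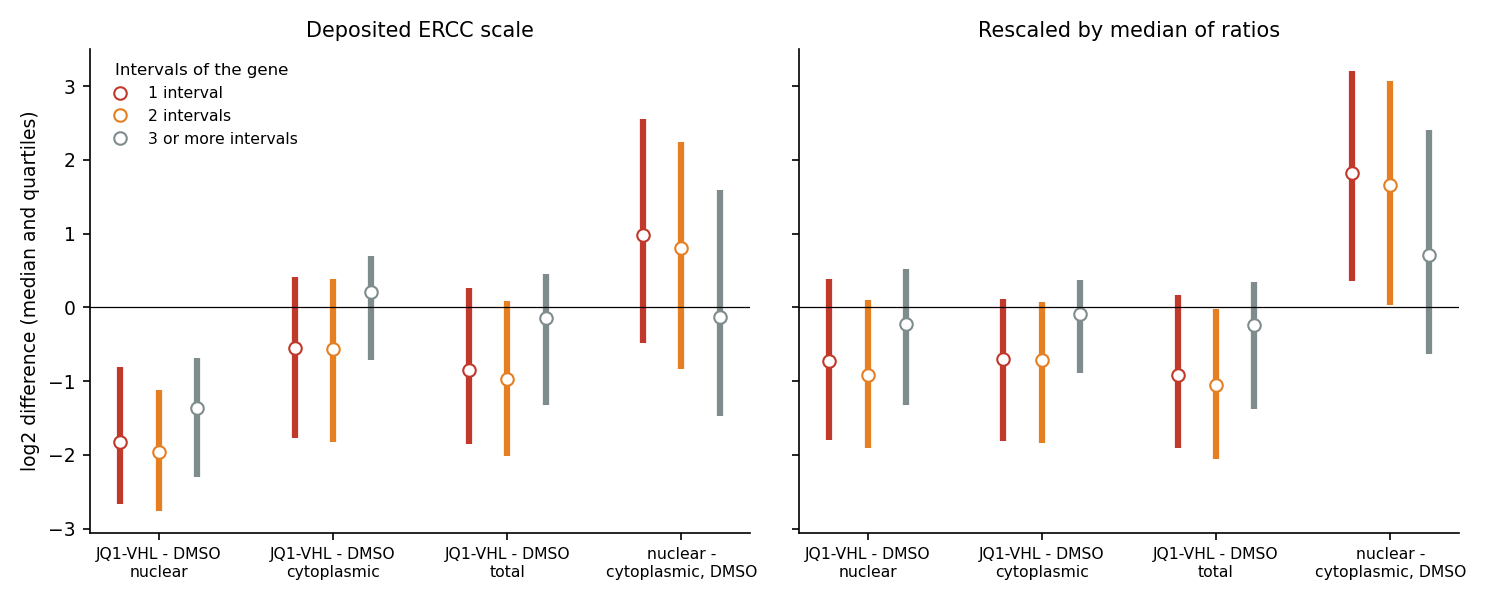
Log2 differences (vertical axis) for intervals of genes with 1, 2 and 3 or more intervals, in the 3 drug comparisons and in nuclear against cytoplasmic DMSO RNA, on the ERCC scale (left) and rescaled (right). Circles are medians and bars run from the lower to the upper quartile over intervals. Single-interval genes had nuclear medians of -1.82 on the ERCC scale and -0.73 rescaled, close to those of genes with 2 intervals (-1.96 and -0.91).

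Between the compartments of DMSO cells, 157 single-interval genes were higher in nuclei and 45 higher in the cytoplasm. Called genes were 35.8% of the 565, against 31.2% of all tested intervals, and those higher in nuclei were 27.8%, against 17.0%, and those higher in the cytoplasm 7.96%, against 14.2%. Of the intervals of genes with 2 intervals, 24.2% were higher in nuclei and 9.02% in the cytoplasm. The median log2 difference, nuclear minus cytoplasmic, was 0.98 for single-interval genes and -0.11 for all intervals, and after rescaling 1.82 and 0.74. Rescaled, 311 were higher in nuclei and 51 in the cytoplasm, with 60.2% of all intervals called, 40.5% higher in nuclei and 19.7% in the cytoplasm. For 167 genes (29.6%, against 20.2% of all intervals) all nuclear libraries lay above all cytoplasmic ones, and for 31 (5.49%, against 10.9%) below them. Without DMSO nuclear replicate 1 the count of calls was 107 (18.9%, against 19.9% of all intervals), with a median of 0.52. Without DMSO cytoplasmic replicate 2 it was split into 96 nuclear and 92 cytoplasmic genes, with a median of 0.07. That is 33.3% called, against 44.4% of all intervals, of which 10.9% were higher in nuclei and 33.4% in the cytoplasm. DESeq2 and edgeR on recovered reads called 33.1% and 33.3% of the 565, against 40.8% and 33.5% of all intervals. ERCC RNA was added per mass of RNA in each fraction, so the values compare shares of recovered RNA and not amounts per cell.

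Annotation class and level went with this difference. Of 189 tested noncoding RNAs, 70 were higher in nuclei and 3 in the cytoplasm, with a median of 1.61. Of 330 protein-coding genes, 75 were higher in nuclei and 37 in the cytoplasm, with a median of 0.78. Over all tested intervals the shares were 17.0% and 14.2%, and over the 565 genes 27.8% and 7.96%. All 10 genes with a mean of at least 1000 units were higher in the cytoplasm, whereas of the 483 with a mean of 10 to 100 units, 149 were higher in nuclei and 14 in the cytoplasm. Across the 565 genes Spearman's rho of the mean value with the difference was -0.306. Genes share libraries and cells, so this describes these libraries, and the DMSO values enter both measures. A high mean can be reached through the cytoplasmic libraries, so the side of the 10 genes was partly set by their choice. The part of level and class in the difference was not tested.

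**Figure D4:**
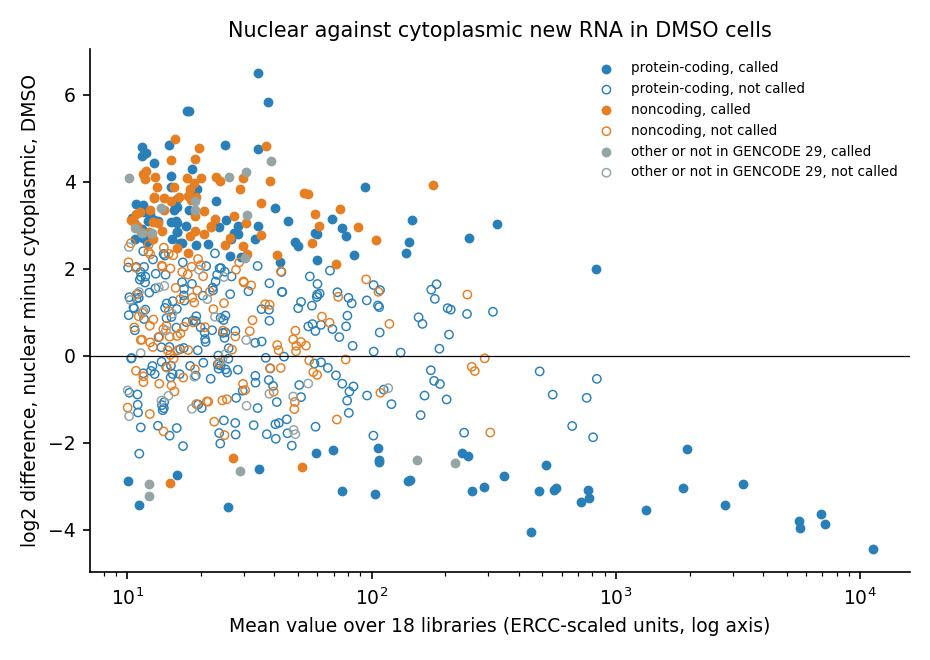
Nuclear minus cytoplasmic log2 difference in DMSO cells (vertical axis) against the mean over 18 libraries in units (horizontal log axis) for 565 single-interval genes. Filled points passed limma at an adjusted p of 0.05, and colours mark protein-coding, noncoding and other genes. All 10 genes above 1000 units lie below 0, between -4.44 and -2.14. The mean that picked them holds their cytoplasmic values, so the choice favours genes high in the cytoplasm.

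The genes of highest mean were TPT1, LAGE3, RPS15A, ATP5F1E, RPS16, KRT18, ARPC3, RAB1B, CSTB and HSPB1, ranked by the deposited value, which is not per length. This mean holds the cytoplasmic values, so the ranking favours genes high in the cytoplasm. TPT1, which encodes the translationally controlled tumour protein, had 970.3, 616 and 619.8 units in DMSO nuclei, against 13754, 5630.3 and 48669 units in DMSO cytoplasm. Every cytoplasmic library exceeded every nuclear one, although the cytoplasmic libraries differed widely from each other. The difference was -4.44 ± 0.75 (limma adjusted p = 1.88e-06), and the snoRNA gene SNORA31 lies in its gap of 631 bp. RPS16, a ribosomal protein of the small subunit with a gap of 139 bp, had 592, 520.3 and 501 units in DMSO nuclei, against 7119.8, 2286 and 25683 units in DMSO cytoplasm (-3.80 ± 0.76, adjusted p = 5.07e-05). ATP5F1E, the epsilon subunit of ATP synthase, had 470.0, 397 and 363 units in DMSO nuclei, against 6205, 1254 and 33488 units in DMSO cytoplasm (-3.97 ± 0.76, adjusted p = 2.46e-05). Those 2 genes showed no overlap between compartments either. The luminal keratin gene KRT18, which overlaps KRT8, had -2.95 ± 0.76, and the small heat shock protein gene HSPB1 -3.55 ± 0.78. RAB1B, a GTPase of the early secretory route, had the smallest difference of the 10, -2.14 ± 0.77 (limma adjusted p = 0.0232). Its call was kept only without DMSO cytoplasmic replicate 2 (adjusted p up to 0.105), and the other 9 held without each library. CFL1, the actin-severing cofilin, had -4.04 ± 0.80 at a lower mean. TPT1, KRT18 and ribosomal protein genes have processed pseudogenes, so that part of their reads may be misplaced.

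None of these 10 genes was called under JQ1-VHL in any fraction on the ERCC scale. Of all tested intervals 22.6%, 2.84% and 4.34% were called in nuclear, cytoplasmic and total RNA. In nuclei TPT1 had 551, 787 and 346 units with JQ1-VHL and 970.3, 616 and 619.8 units with DMSO (-0.43 ± 0.75, limma adjusted p = 0.669), and the groups overlapped. The 10 had a nuclear median of -0.56, whereas the median of all tested intervals was -1.38. After rescaling 2 of the 10 were called higher in total RNA and none in the cytoplasm, against 2.67% and 2.41% of all intervals. TPT1, LAGE3, RPS15A, RPS16, KRT18 and ARPC3 were then called higher in nuclei, by 0.64 to 1.05 on the log2 scale. These are 6 of the 10, against 9.77% of all intervals called higher. Their direction in nuclei therefore turned with the scaling.

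Genes with the largest nuclear excess in DMSO cells had almost no cytoplasmic reads. MCRIP1, which binds the corepressor CtBP, had 121, 87.6 and 71.0 units in DMSO nuclei, against 3.3, 0 and 0 units in DMSO cytoplasm (5.82 ± 0.93, limma adjusted p = 4.16e-07). PTPRCAP, a lymphocyte gene whose gap holds an exon of the actin regulator CORO1B, had 142, 76.9 and 64.9 units in DMSO nuclei and no read in DMSO cytoplasm. The excess was at least 19.1-fold against a floor of 3 reads in each library. FASTK, a regulator of mitochondrial RNA, had 88.4, 47.1 and 27.3 units in DMSO nuclei and no cytoplasmic read, which is at least 11-fold higher. TSPYL2 had 60.6, 53.3 and 55.0 units in DMSO nuclei and 1 read in the cytoplasm (5.63 ± 1.04, limma adjusted p = 1.31e-05). The groups of these 4 genes did not overlap, and their calls held without each library. The floors cover counting error only, since the labels name no molecular identifiers.

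Ribosomal protein genes with 1 gap differed in this respect. RPLP1, of the ribosomal stalk, had 147, 77.5 and 67.2 units in DMSO nuclei, against 656, 199.9 and 3748 units in DMSO cytoplasm (-3.10 ± 0.80, limma adjusted p = 0.00145, and 0.053 without DMSO cytoplasmic replicate 3). RPL41 had 472, 129.7 and 115 units in DMSO nuclei, against 72.7, 5.52 and 66.1 units in DMSO cytoplasm. It was higher in nuclei (2.60 ± 0.81, limma adjusted p = 0.00883), and the call was lost without DMSO nuclear replicate 1 or DMSO cytoplasmic replicate 2 (adjusted p up to 0.19). RPS28 and RPL36AL had differences of -0.68 ± 0.84 and -0.64 ± 0.83 and were not called.

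Gap length went with the nuclear excess. The 246 tested genes with 1 gap were divided into 4 parts of nearly equal number by its length. The median log2 difference, nuclear minus cytoplasmic, was -0.56 for gaps of 59 to 726 bp, 0.79 for 748 to 2431 bp, 1.03 for 2462 to 8206 bp and 2.03 for 8220 to 117979 bp. After rescaling the medians were 0.29, 1.64, 1.97 and 2.91. Genes called higher in nuclei numbered 4 of 62, 14 of 61, 20 of 61 and 29 of 62 from the shortest to the longest gaps, and those higher in the cytoplasm 12, 3, 1 and 0. Over all tested intervals 17.0% were higher in nuclei and 14.2% in the cytoplasm. Spearman's rho of gap length with the difference was 0.424 over 246 genes. It was 0.365 over the 113 protein-coding genes with a mean under 1000 units and no exon of another gene in the gap. These genes share libraries and cells. HSPB1, RPS16, RPLP1 and NDUFB10, with gaps of 118, 139, 140 and 1398 bp, had -3.55, -3.80, -3.10 and 3.13, and H2AC6, a histone H2A gene with a gap of 13304 bp, had 3.02 ± 0.80 (limma adjusted p = 0.00204). The order has exceptions, such as FASTK, with a gap of 469 bp in the shortest part and a nuclear excess of 5.63. The nuclear change under JQ1-VHL did not follow the same order, with medians of -1.94, -2.64, -2.24 and -1.58 from the shortest to the longest gaps. Whether spliced reads were counted across a gap was not settled from the sources used here.

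**Figure D5:**
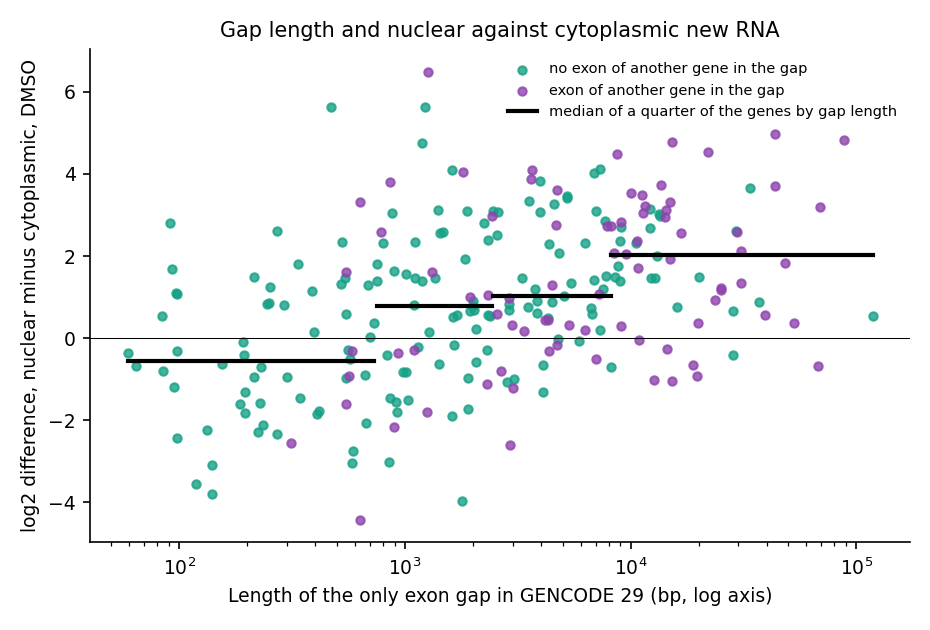
Nuclear minus cytoplasmic log2 difference in DMSO cells (vertical axis) against the length of the only exon gap (bp, horizontal log axis) for 246 single-interval genes. Colours mark whether an exon of another gene lies in the gap, and black lines are medians of the 4 parts by length, which lie at -0.56, 0.79, 1.03 and 2.03.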

How the data were processed

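New RNA was measured by SLAM-seq in 18 MDA-MB-453 libraries, 3 replicates for each of 6 groups. The deposited table holds 1 signal value per interval and library, which the authors scaled to ERCC spike-ins, as the table's title says. ERCC RNA was added per mass of RNA after extraction, per the labels' protocols. Trimmomatic 0.39, bcl2fastq, HTSeq, HISAT2 and DESeq2 and the builds hg19 (GRCh37) and dm3 appear, without roles, in the submitters' processing notes. How intervals were defined, T-to-C changes called and strands counted is not given in the sources used here. Every value was a whole multiple of its library's smallest value within 0.01 of a read (100% of values), so reads were recovered; 1584517 to 6773386 were found per library, and no 2 libraries were alike (at least 72369 intervals differed).

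Single-interval genes were matched by Ensembl ID to GENCODE 29 (GRCh38), the table giving no coordinates. limma 3.58.1 (R 4.3.3) was fitted with trended, robust variances to log2(value + 1) of the 48618 intervals with a mean of at least 10 units, with 6 group means, and p-values were Benjamini-Hochberg adjusted over all of them. The counted reads were not the main input because the deposited values are scaled. Alternatives were a pseudocount of 0.1, no filter, median-of-ratios rescaling, the replicate block, gene sums, edgeR 4.0.16 and DESeq2 1.42.0 on recovered reads with ERCC factors, each library left out, and edgeR with TMM scaling, which was chosen after seeing the data. With edgeR, recovered reads gave 144 nuclear, 38 cytoplasmic, 54 total and 188 nuclear against cytoplasmic calls among the 565 genes, against 17.8%, 1.90%, 4.12% and 33.5% of all intervals. The labels give each replicate number as a batch number, which pairs the samples. The main fit did not use this pairing, and the replicate block did. Deviations of same-numbered JQ1-VHL and DMSO libraries correlated at 0.26, -0.13 and 0.31 in nuclei, 0.06, -0.05 and 0.02 in cytoplasm and 0.21, 0.07 and 0.13 in total RNA.

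Named genes were the 5 highest and 5 lowest calls of each comparison, the 10 highest by mean and up to 6 of each gene list. Some genes that this rule names are not reported here. The genes, lists and rules were chosen with earlier results of these data known. The fit was also run on simulated counts. These lacked the scale differences between replicates seen here, so that run gives no error rate for these libraries. Tables were handled with Python 3.11.15, pandas 2.3.3 and scipy 1.17.1.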

Additional observations from a re-analysis of the deposited data

How the results depend on the processing

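Counts of called single-interval genes depended on scaling, pseudocount, filter and single libraries. Rescaled, 137 were called in cytoplasm, 163 in total RNA, 362 in nuclei against cytoplasm and 2 in the difference of drug effects (24.2%, 28.8%, 64.1% and 0.354%, against 12%, 19.9%, 60.2% and 0.527%). With TMM scaling these counts were 129, 190, 375 and 3 (22.8%, 33.6%, 66.4% and 0.531% of the 565, against 12.6%, 28.5%, 61.8% and 0.551% of all intervals). Total RNA split into 133 lower and 57 higher, where 15.6% of all intervals were lower and 12.9% higher. A pseudocount of 0.1 gave 36 nuclear, 36 cytoplasmic, 1 total and 127 nuclear against cytoplasmic calls (6.37%, 6.37%, 0.177% and 22.5%, against 6.77%, 2.18%, 0.234% and 22.7%). Without the filter all 2318 genes were tested, with 616 nuclear, 82 cytoplasmic, 299 total and 778 nuclear against cytoplasmic calls (26.6%, 3.54%, 12.9% and 33.6%, against 26.7%, 2.23%, 8.07% and 30.3% of all intervals). The replicate block gave 232 nuclear, 71 cytoplasmic, 102 total and 222 nuclear against cytoplasmic calls, and 2 in the difference of effects. These are 41.1%, 12.6%, 18.1%, 39.3% and 0.354%, against 29.4%, 4.61%, 8.10%, 35.4% and 0.436% of all intervals. The block kept all 96 calls of named genes and added 7. Gene sums gave 23 calls in total RNA (4.07%, against 3.03% of all genes). With 1 library left out, counts were 15 to 206 in nuclei, 5 to 99 in cytoplasm, 8 to 60 in total RNA, 107 to 189 in nuclei against cytoplasm and 0 to 5 in the difference. Of the 96 named calls, 91 were kept after rescaling, 90 with TMM, 80 with DESeq2, 78 with edgeR, 68 with gene sums and 53 with the pseudocount of 0.1, and none reversed in these settings. Signs turned for uncalled genes. In nuclei, TPT1 had 0.86 (TMM 0.87), LAGE3 1.05 (1.04), RPS15A 0.81 (0.79), RPS16 0.64, KRT18 0.78 (0.76) and ARPC3 0.70 (0.71) after rescaling. LINC01483 had 0.81 (0.65) in DMSO nuclei against cytoplasm. The cause was not tested. A single read is worth up to 2.75 units, so differences near the limit of 10 units rest on few reads.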
